A study of Mus musculus with 9 samples.

Results

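Replicating cells mark each start site of DNA replication once per cycle by loading a ring of 6 related proteins, MCM2 to MCM7, onto DNA. The origin recognition complex (ORC) and CDC6 sit at the origin, CDT1 brings the MCM ring, and geminin (Gmnn) binds CDT1 after replication has begun so that no origin is loaded again. The loaded ring is inactive until CDC45 and the GINS complex join it, and it then unwinds DNA ahead of the polymerases. Transcripts of these genes are low in resting cells and rise when cells enter the cycle, and many of them are known targets of E2F transcription factors. Macrophages can divide in response to macrophage colony-stimulating factor (M-CSF), unlike many other mature blood cells.

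The 10 genes described here were the 6 subunit genes (Mcm2, Mcm3, Mcm4, Mcm5, Mcm6 and Mcm7), the loaders Cdc6 and Cdt1, the CDT1 inhibitor Gmnn and the helicase activator Cdc45. They were chosen by symbol. All 10 were found among 24411 gene rows, and all 10 were among the 11753 genes that passed the filter on low values, which kept genes at 1 or more TPM in at least 3 of 9 libraries.

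The libraries came from macrophage lines of C57BL/6 mice, an inbred strain, expanded through long-term culture with recombinant human M-CSF at 100 ng/mL. There were 3 yolk sac (YS) lines from embryos at E9.5, 3 fetal liver (FL) lines from embryos at E14.5 and 3 bone marrow (BM) lines from adult mice. Every line was a bulk culture that grew in its own dish or well out of colonies, and the starting cells had been pooled over more than 1 animal. Separate source animals for each line were not stated, so p-values measure the spread between lines only. No line was grown without M-CSF or left unexpanded in this set, and age and tissue of origin changed together. Culture vessel, seeding density and time of expansion also differed between the groups. By the study's methods, most adherent FL and BM cells stopped dividing and began to die before colonies grew out. Adherent YS cells did not necessarily stop. These differences cannot be told apart from origin here. Libraries were made from poly(A) RNA with a kit that keeps strand.

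TPM is the relative transcript abundance that divides each gene’s reads by transcript length and by the library total, so every library has the same sum and the sequencing depth is unknown. Between 13345 and 14322 genes were above 0 in each library. All 8 macrophage markers examined, among them the M-CSF receptor gene Csf1r, were at 1 TPM or more in all 9 lines. Fibroblast and stromal, mast cell and lymphocyte markers stayed under 1 TPM each. The 6 erythroid markers summed to 330 TPM in BM line 2, mostly from Hba-a1, and to at most 14.4 TPM elsewhere. The 5 endothelial markers ranged in sum from 5.37 to 56.0 TPM over the YS lines, from 18.9 to 51.8 TPM over the FL lines and from 0.08 to 1.70 TPM over the BM lines, with Kdr giving the highest values, while Tek and Emcn were at or near 0. The 5 neutrophil markers summed to between 0.06 and 2.24 TPM over the YS lines, between 10.55 and 25.1 TPM over the FL lines and between 3.49 and 5 TPM over the BM lines. S100a8 gave nearly all of it in the FL and BM lines, while Elane and Ngp were at 0 in all lines. The 4 hepatoblast markers summed to between 1.03 and 6.75, between 9 and 20.6 and between 3.1 and 12.5 TPM in the same order, nearly all of it Afp, with Alb, Ttr and Apoa1 near 0. The part of these markers in the results was not tested. YS line 1 stood apart for its low macrophage marker sum, 3231 TPM, and counts without this line are given with the results.

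The MCM subunits differed in level among themselves. Mcm6 was the highest subunit and Mcm4 the lowest in all 9 lines. Averaged over the lines, Mcm6 reached 282 TPM, which put it at percentile 95.2 of tested genes, against 76.0 TPM and percentile 78.3 for Mcm4. Mcm3, Mcm5 and Mcm7 lay close together at 155, 156 and 151 TPM, and their order changed from line to line. Mcm2 followed at 124 TPM. Of the other genes, Gmnn had 149 TPM, Cdt1 96.5 TPM, Cdc45 44.0 TPM and Cdc6 19.2 TPM. Cdc6 was thus the least abundant of the 10 transcripts.

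**Figure D1:**
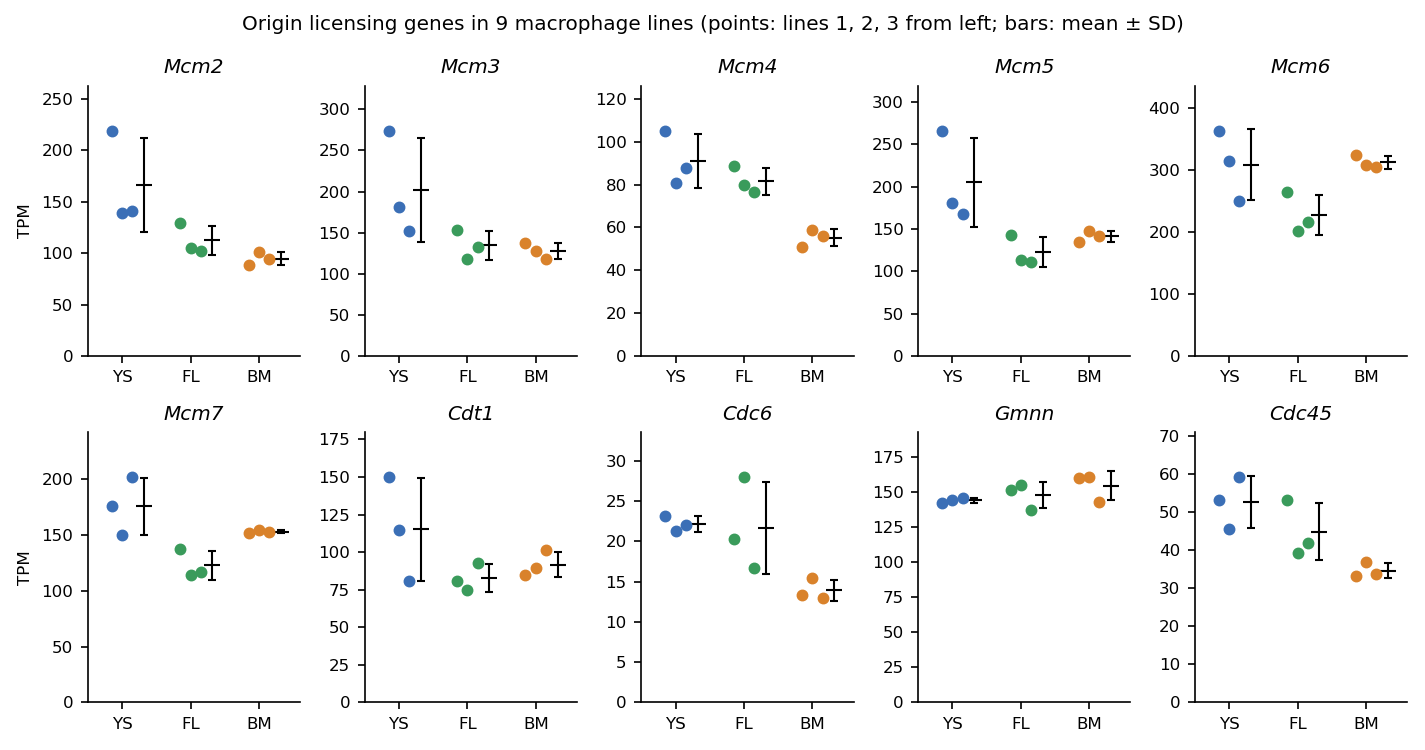
TPM of each of the 10 genes in the 3 YS, 3 FL and 3 BM lines, with every axis starting at 0; points are lines 1 to 3 from left to right and the bar is the mean ± SD. The BM lines lie close together for most genes, and YS line 1 is the highest point for Mcm2, Mcm3, Mcm4, Mcm5, Mcm6 and Cdt1.

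The comparison of YS with BM lines asks how embryonic and adult macrophage lines differ when both are grown with M-CSF. In YS lines, 6 of the 10 genes were higher than in BM lines, and none was lower. These were the subunit genes Mcm2, Mcm3, Mcm4 and Mcm5, the loader gene Cdc6 and the activator gene Cdc45. A gene passed at a false discovery rate (Benjamini-Hochberg) under 0.1 in limma, on log2(TPM + 1). Over all tested genes 37.9% passed in this comparison, and 23.5% passed as higher in YS lines. None of the 10 differed more than 2-fold, which 12.8% of tested genes did. The median difference of the 10 genes was 0.54 on the log2 scale, against 0.11 for all tested genes. The share of cycling cells and the amount of RNA per cell cannot be told apart in such bulk libraries.

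Mcm4 showed the difference with the smallest adjusted p. It encodes a subunit of the catalytic core with Mcm6 and Mcm7. Mcm4 stood at 105.01, 80.56 and 87.69 TPM in the YS lines, compared with 50.84, 59 and 55.80 TPM in the BM lines. The groups did not overlap. The log2 difference was 0.71 (SE 0.12), a ratio of 1.63, with an adjusted p of 0.006126 in limma.

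Mcm2 was at 218.74, 138.73 and 141.04 TPM in the YS lines, compared with 88.87, 101.25 and 93.93 TPM in the BM lines. All YS lines were above all BM lines, and YS line 1 was the highest by a wide margin. The log2 difference was 0.77 (SE 0.18; limma adjusted p = 0.01682), a ratio of 1.71. Mcm2 and Mcm4 kept passing in each of 19 alternative settings.

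Mcm3 and Mcm5 followed the same direction with smaller margins. Mcm3 was at 273.71, 180.77 and 151.84 TPM in the YS lines, compared with 137.28, 127.44 and 118.29 TPM in the BM lines. Mcm5 was at 265.79, 181.22 and 167.93 TPM in the YS lines, compared with 134.65, 147.83 and 142.08 TPM in the BM lines. Both genes were highest in YS line 1, and neither overlapped between the groups. The log2 differences were 0.62 (SE 0.21; limma adjusted p = 0.05434) for Mcm3 and 0.50 (SE 0.18; limma adjusted p = 0.06684) for Mcm5. Without YS line 1 the difference was 0.38 (limma adjusted p = 0.08059) for Mcm3 and 0.30 for Mcm5, which then did not pass (limma adjusted p = 0.1158). Mcm5 also no longer passed when the libraries were quantile normalized (limma adjusted p = 0.1046) or scaled by median-of-ratios factors (limma adjusted p = 0.1017).

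The other subunits of the ring did not pass. Mcm6 was at 362.61, 313.69 and 248.98 TPM in the YS lines, compared with 323.31, 307.17 and 305.07 TPM in the BM lines. The BM lines lay inside the range of the YS lines. Its log2 difference was -0.03, with a 95% confidence interval from -0.38 to 0.32. Mcm7 was at 175.70, 150.36 and 201.59 TPM in the YS lines, compared with 151.66, 154.62 and 152.90 TPM in the BM lines, a log2 difference of 0.19 with an interval from -0.10 to 0.48. The 3 BM lines thus differed by less than 3 TPM for Mcm7, while the YS lines spread to both sides of them.

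Loaders and inhibitor did not move as a block. Cdc6, the ATPase that helps ORC to load the ring, was at 23.19, 21.31 and 21.99 TPM in the YS lines, compared with 13.34, 15.44 and 13.01 TPM in the BM lines. These groups were clearly apart, with a log2 difference of 0.64 (SE 0.18; limma adjusted p = 0.03127). Cdt1 was at 149.67, 114.84 and 80.80 TPM in the YS lines, compared with 84.54, 89.40 and 101.16 TPM in the BM lines, so the groups overlapped. Its log2 difference of 0.28 had an interval from -0.18 to 0.75. Gmnn was almost level across lines, at 142.26, 143.99 and 145.79 TPM in the YS lines, compared with 160.22, 160.24 and 142.64 TPM in the BM lines, with a log2 difference of -0.10 and an interval from -0.31 to 0.11.

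Cdc45, which turns the loaded ring into a working helicase together with GINS, was at 53.28, 45.49 and 59.15 TPM in the YS lines, compared with 33.15, 36.81 and 33.77 TPM in the BM lines. Every YS line was above every BM line. The log2 difference was 0.59 (SE 0.15; limma adjusted p = 0.02035).

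All 6 genes that passed also had groups that did not overlap, as 30.3% of tested genes did in this direction. Leaving out BM line 1 or BM line 3 reduced the count from 6 to 3 in each case, and the share of all tested genes that passed was then 22.4% and 21.9%. The genes no longer called were Mcm3, Mcm5 and Cdc6, with log2 differences of 0.67, 0.47 and 0.61 without BM line 1 and 0.56, 0.51 and 0.59 without BM line 3. Without BM line 2 the count was 4, where 27.7% of all tested genes passed. Mcm3 (0.62, limma adjusted p = 0.1203) and Mcm5 (0.53, limma adjusted p = 0.121) were then not called. Mcm3 and Mcm5 thus did not pass when any one of the BM lines was left out. Without YS line 1, 5 genes passed, all but Mcm5, where 38.0% of all tested genes did. An exact permutation test of 3 against 3 lines cannot give a p under 0.1, which all 6 genes reached.

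Against BM lines, FL lines differed in a share of these genes close to that of all tested genes. Of all tested genes, 17.0% passed as higher and 10.6% as lower in FL lines. Mcm4 and Cdc6 were higher than in BM lines and Mcm6 was lower, so 3 of the 10 passed, where 27.6% of all tested genes passed. The median of the 10 genes was 0.00 on the log2 scale against 0.09 for all tested genes. None of the 10 differed more than 2-fold, as 10.3% of tested genes did. Of the 10 genes, 4 were higher in every FL line than in every BM line (31.0% of tested genes were) and 2 were lower (18.5%). This comparison uses the same 3 BM lines as that of YS lines.

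Mcm4 was at 88.67, 79.72 and 76.36 TPM in FL lines, all above the highest BM line at 59 TPM. The log2 difference was 0.55 (SE 0.12; limma adjusted p = 0.01611). Cdc6 was at 20.29, 27.92 and 16.70 TPM in FL lines, again above every BM line, with a log2 difference of 0.57 (limma adjusted p = 0.05516). FL line 2 had the highest Cdc6 level of the 9 lines.

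Mcm6 went the other way. It was at 264.11, 202.02 and 215.44 TPM in FL lines, all below the lowest BM line at 305.07 TPM. The log2 difference was -0.46 (95% interval -0.82 to -0.11; limma adjusted p = 0.06782). Mcm7 was also below every BM line, at 137.86, 114.01 and 116.54 TPM, with a log2 difference of -0.32 that missed the threshold (limma adjusted p = 0.1129) and met it in 8 of 19 alternative settings. Mcm2, Mcm3, Mcm5, Cdt1, Gmnn and Cdc45 did not pass, with log2 differences between -0.21 for Mcm5 and 0.36 for Cdc45. Without FL line 2, BM line 1 or BM line 3 the count dropped from 3 to 1, which was Mcm4, where 22.7%, 15.9% and 15% of all tested genes passed. Mcm6 was then at -0.38, -0.44 and -0.48, and Cdc6 at 0.38, 0.55 and 0.53. Mcm6 also did not pass without FL line 3 (-0.43, limma adjusted p = 0.1644) or BM line 2 (-0.47, limma adjusted p = 0.1456). Cdc6 also did not pass without FL line 1 (0.60, limma adjusted p = 0.1046). In these settings 21.1%, 19.5% and 21.2% of all tested genes passed. Without YS line 3 the count was 5 (32.7% of all tested genes passed). Without YS line 1, which enters this fit through the shared spread only, 4 genes passed (37.2%).

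YS and FL lines, the embryonic pair, were compared directly. Mcm5 and Mcm7 were higher in YS lines, 2 of the 10 genes, where 12.8% of all tested genes passed. Of all tested genes, 6.20% passed as higher and 6.56% as lower in YS lines. None differed more than 2-fold, as 3.79% of tested genes did, and 3 genes were higher in every YS line than in every FL line, as 12.6% of tested genes were. Mcm5 was at 143.28, 113.88 and 111.06 TPM in FL lines, all below the lowest YS line, with a log2 difference of 0.71 (limma adjusted p = 0.05878). Mcm7 likewise showed no overlap, with a log2 difference of 0.51 (limma adjusted p = 0.05791). All 6 subunit genes had a positive difference in this comparison, from 0.15 for Mcm4 to 0.71 for Mcm5. Cdc6 and Gmnn had differences of 0.06 and -0.04. With only the 6 YS and FL libraries in the fit, 0.834% of all tested genes passed and none of the 10 did in limma, of which 3 had an unadjusted p under 0.05, while the differences of Mcm5 and Mcm7 were again 0.71 and 0.51. None of the 10 passed without FL line 2, FL line 3, BM line 1 or BM line 3, where 2.50%, 2.34%, 5.36% and 5.38% of all tested genes passed. In these settings Mcm5 was between 0.65 and 0.71 and Mcm7 between 0.46 and 0.51. Without BM line 2, Mcm5 passed (6.08% of all tested genes did), without YS line 3, 6 genes passed (15.3%), and without YS line 1, 2 genes passed (11.2%).

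**Figure D2:**
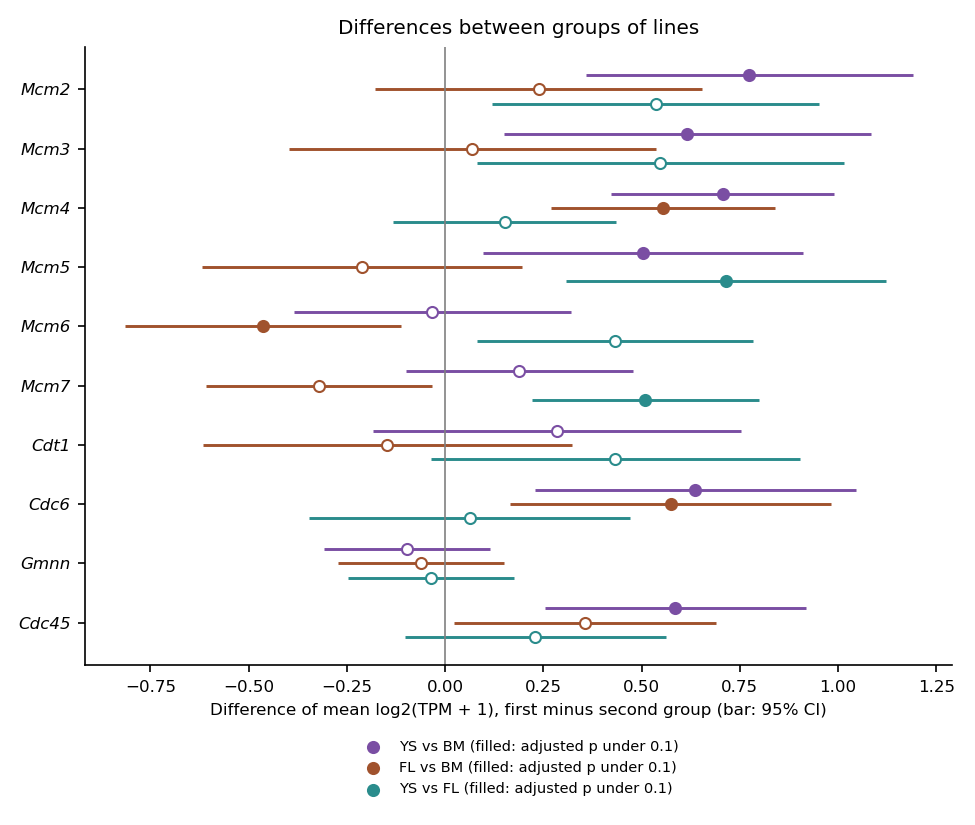
Difference of mean log2(TPM + 1) between groups of lines for each gene, with 95% confidence intervals, in the 3 comparisons; filled points passed at an adjusted p under 0.1. Mcm4 and Cdc6 lie to the right of 0 against BM lines in both embryonic groups, Mcm6 lies to the left in FL against BM lines, and the Gmnn points stay within 0.10 of 0.

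The make-up of the MCM transcript pool differed between the groups, which restates the differences of the single genes as shares. The 6 subunits occupy equal places in the ring, while their transcripts were unequal. Summed over the 6 genes, the YS lines reached 1401.56, 1045.33 and 999.07 TPM, FL lines 916.18, 733.16 and 753.96 TPM, and BM lines 886.61, 897.31 and 868.07 TPM. All 3 YS lines were above all other lines. The sums of the FL lines lay on both sides of the BM sums.

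In BM lines Mcm6 alone made up 35.3% ± 1.12 (SD, n = 3) of that sum, against 28.3% ± 0.674 in FL lines and 26.9% ± 2.71 in YS lines. Mcm2 and Mcm4 were the counterpart. Mcm2 held 10.7% ± 0.637 in BM lines, 14% ± 0.395 in FL lines and 14.3% ± 1.18 in YS lines, and Mcm4 held 6.25% ± 0.449, 10.2% ± 0.604 and 7.99% ± 0.688 in the same order. For these 3 subunits no BM line overlapped with any YS or FL line.

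The ratio of Mcm6 to Mcm2 was 3.64, 3.03 and 3.25 in BM lines, 2.05, 1.92 and 2.10 in FL lines and 1.66, 2.26 and 1.77 in YS lines. The ratio of the highest to the lowest subunit was between 5.21 and 6.36 in BM lines, between 2.53 and 2.98 in FL lines and between 2.84 and 3.89 in YS lines. A ratio within one library does not depend on how the library was scaled. These shares and ratios are given as descriptions and were not tested. They were not adjusted for the chromosome medians given below, and Mcm4, the lowest subunit in all lines, lies on chromosome 16.

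**Figure D3:**
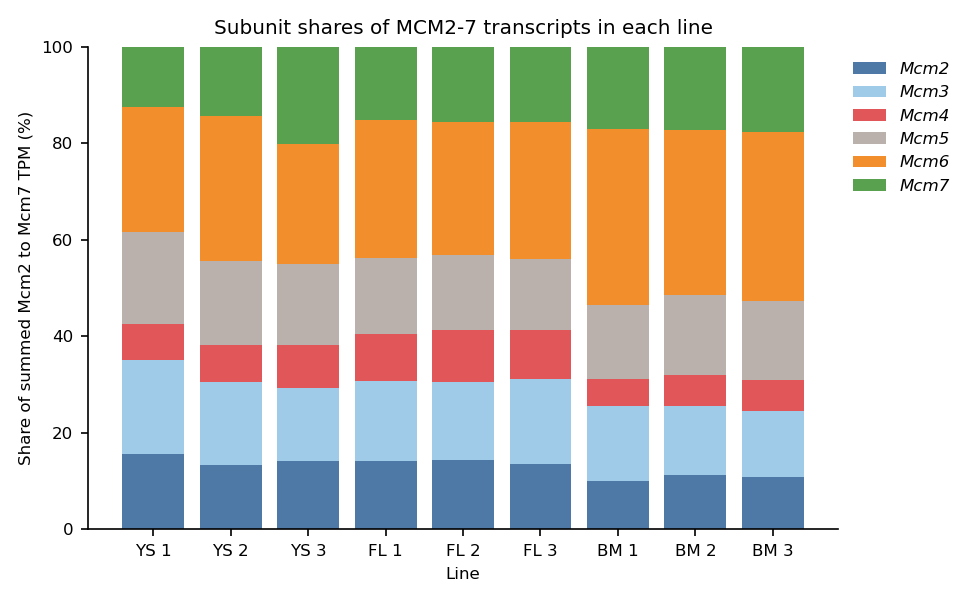
Share of each subunit in the summed TPM of Mcm2 to Mcm7 in each of the 9 lines, in percent, stacked to 100%. Mcm6 takes between 34.23% and 36.47% in BM lines and between 24.92% and 30.01% in the other lines, and YS line 3 has the largest Mcm7 share, 20.18%.

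The ratio of Cdt1 to Gmnn TPM in each line describes transcripts only, since these libraries do not measure CDT1 or geminin protein. It was 1.05, 0.798 and 0.554 in YS lines, 0.534, 0.482 and 0.675 in FL lines and 0.528, 0.558 and 0.709 in BM lines. YS line 1 was the only line with a higher TPM for Cdt1 than for Gmnn. The groups overlapped in all 3 comparisons, and the exact two-sided permutation p was 0.3 for YS against BM lines, 0.6 for FL against BM lines and 0.2 for YS against FL lines (0.45, 0.6 and 0.45 after Benjamini-Hochberg adjustment over the 3 comparisons), where 0.1 is the smallest p possible. The log2 differences of the ratio were 0.39, -0.09 and 0.47. Without YS line 1 that of YS against BM lines was 0.16 and that of YS against FL lines 0.25, and without YS line 3 they were 0.63 and 0.71.

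The medians of chromosomes differed between these lines, and the 10 genes lie on 7 chromosomes. For each line, the median deviation from the 9-line mean was taken over all tested genes of a chromosome. On chromosome 16, which holds Mcm4 and Cdc45, that median was between 0.13 and 0.26 in FL lines and between -0.26 and -0.24 in BM lines on the log2 scale, while the YS lines had 0.23, -0.01 and -0.06. The median difference of the 344 tested genes of chromosome 16 was 0.44 in FL against BM lines and 0.28 in YS against BM lines. The Mcm4 difference of 0.55 in FL against BM lines thus lay on a chromosome with a median of 0.44.

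Some of the genes had the same order as their chromosome among the 3 YS lines, and others did not. Chromosome 1, with Mcm3 and Mcm6, had a median of 0.29 in YS line 1 and -0.19 in YS line 3, and chromosome 8, with Mcm5 and Cdt1, had 0.33 and -0.22. Mcm3, Mcm5, Mcm6 and Cdt1 were highest in YS line 1 and lowest in YS line 3 among the YS lines. Chromosome 6, with Mcm2, had 0.25, -0.03 and 0.11 in YS lines 1, 2 and 3. Mcm2 had the same order, highest in YS line 1 and lowest in YS line 2. On chromosome 5, with Mcm7, YS line 3 had 0.31, YS line 2 had 0.04 and YS line 1 had -0.08. Mcm7 was highest in YS line 3 but lowest in YS line 2, so it kept this order only in part. Mcm4 was highest in YS line 1, as chromosome 16 was. It was lowest in YS line 2, while chromosome 16 was lowest in YS line 3. Cdc45, Cdc6 and Gmnn ran otherwise. Cdc45 was highest in YS line 3, where chromosome 16 had its lowest YS value, and Cdc6 was highest in YS line 1, where chromosome 11 was lowest among them, at -0.05 against 0.08 and 0.10. Gmnn was highest in YS line 3, where chromosome 13 was lowest, at -0.14 against -0.06 and -0.09. Across the 9 lines, the Pearson correlation of each gene with the median of its chromosome ran from 0.30 for Gmnn to 0.91 for Mcm2. These points share libraries and cover 9 lines, and they are given as a description. DNA copy number was not measured in these libraries, and its part was not tested.

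When the chromosome median of each line was subtracted before the fit, a setting chosen after the data were seen, 5 of the 10 genes still passed as higher in YS than in BM lines, where 34.1% of all tested genes passed in either direction. Mcm2 had a log2 difference of 0.56 (limma adjusted p = 0.02374), Mcm3 0.51 (limma adjusted p = 0.02206), Mcm4 0.40 (limma adjusted p = 0.01457), Mcm5 0.36 (limma adjusted p = 0.05592) and Cdc6 0.47 (limma adjusted p = 0.03984). Cdc45 fell to 0.28 and did not pass (limma adjusted p = 0.1931). In FL against BM lines, Mcm4 dropped from 0.55 to 0.10 (limma adjusted p = 0.4846) and Cdc6 from 0.57 to 0.37 (limma adjusted p = 0.1062), while Mcm6 stayed lower at -0.56 (limma adjusted p = 0.005408) and Mcm7 passed as lower at -0.31 (limma adjusted p = 0.07125), and 24.6% of all tested genes passed. In YS against FL lines, 5 subunit genes passed as higher in place of 2, with Mcm3, Mcm4 and Mcm6 added to Mcm5 and Mcm7, where 13.0% of all tested genes passed.

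**Figure D4:**
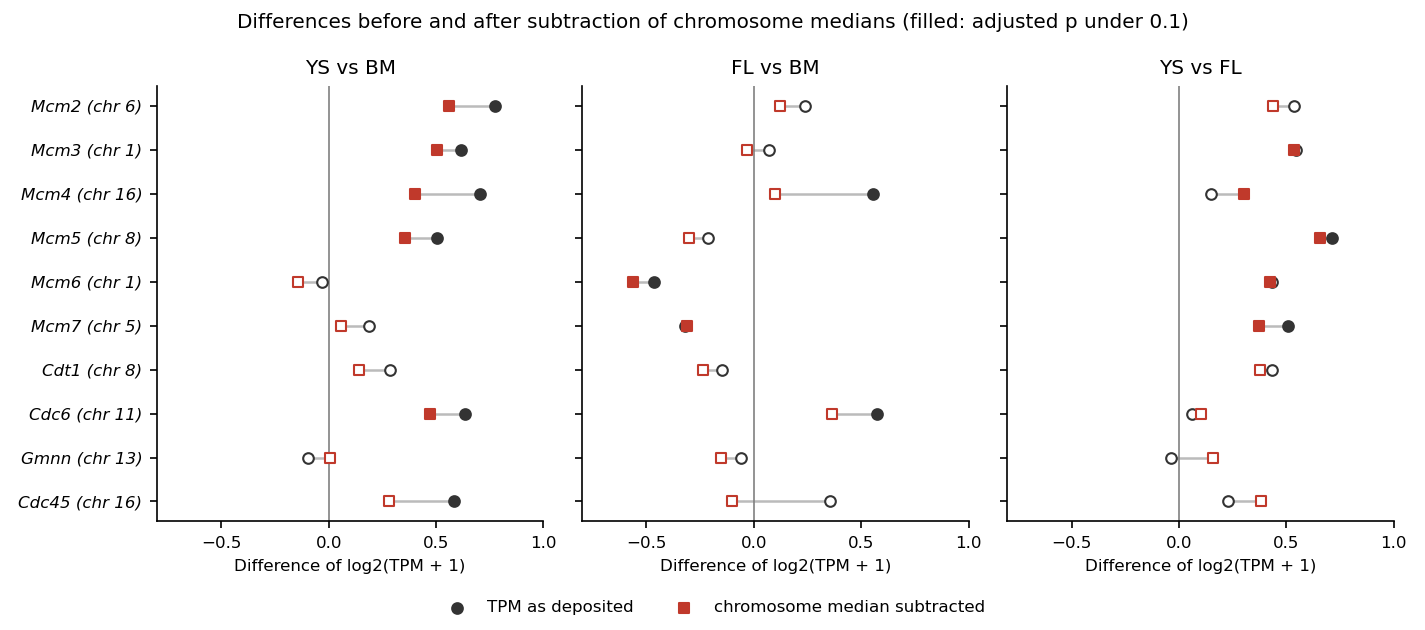
Log2 difference of each gene between groups of lines before (circles) and after (squares) the median of its chromosome was subtracted in each line; filled symbols passed at an adjusted p under 0.1. In FL against BM lines Mcm4 moves from 0.55 to 0.10 and Cdc45 from 0.36 to -0.10, while Mcm6 moves only from -0.46 to -0.56.

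Promoter sequence was examined because E2F factors are known regulators of this gene set. RefSeq promoter windows (assembly GRCm38.p6) of 250 bases before and 50 bases after a transcript start were searched on both strands for the letters TTTCGCGC and TTTGGCGC, used here as the E2F motif. Windows were given for 8 of the 10 genes, all but Mcm4 and Gmnn. Of these, 5 held a match, against 0.81% of all 32851 windows and 1.92% of the 8929 tested genes with a window. The 30 bases around each match are given with the match in capitals, to show what flanks the shared letters.
Mcm6, match farther from the start: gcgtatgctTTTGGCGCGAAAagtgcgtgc
Mcm6, match nearer to the start: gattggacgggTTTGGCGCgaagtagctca
Mcm5: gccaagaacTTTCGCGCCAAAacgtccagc
Mcm3: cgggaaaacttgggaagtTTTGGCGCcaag
Mcm7: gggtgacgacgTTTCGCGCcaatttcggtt
Cdt1: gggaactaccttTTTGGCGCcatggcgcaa

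The Mcm6 sequences are chr1:128359795-128359824 and chr1:128359734-128359763 on the minus strand, with matches that begin 110 and 47 bases before the start. The Mcm5 sequence is chr8:75109347-75109376 on the plus strand, and its match begins 153 bases before the start. In this Mcm5 match and in the farther Mcm6 match, the capitals cover overlapping matches on both strands. The other sequences lie just after the start, at chr1:20820263-20820292 (minus) for Mcm3, chr5:138171849-138171878 (minus) for Mcm7 and chr8:122568035-122568064 (plus) for Cdt1, where the matches begin at bases 39, 17 and 33 of the transcript. The Mcm7 match was in one of its 2 windows, and its last base is also the first base of a CCAAT.

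The CCAAT box, bound by the factor NF-Y, was in a window of 6 of the 8 genes on either strand, while 37.41% of all windows held it. The windows of Mcm2, Cdc6 and Cdc45 held no match to the E2F letters. Genes with the match therefore stood on both sides of the test in YS against BM lines: Mcm3 and Mcm5 passed, and Mcm6, Mcm7 and Cdt1 did not. Over all tested genes with a window, those with a match had a median log2 difference of 0.18 and those without one 0.11 in YS against BM lines. The values were 0.07 and 0.10 in FL against BM lines, and 0.18 and 0.02 in YS against FL lines. Among 63 other tested replication genes with a window, 10 held the match.

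Partner genes around the helicase gave the context. ORC, the 6-subunit platform for loading, was mixed. Orc1 and Orc3 were higher and Orc5 was lower in YS than in BM lines, 3 of 6 genes, where 37.9% of all tested genes passed. With 1 line left out the count was between 2 (without BM line 3) and 5 (without YS line 3), where 21.9% and 40.3% of all tested genes passed. Orc1 was at 15.46, 7.97 and 11.25 TPM in the YS lines, compared with 6.70, 5.80 and 5.69 TPM in the BM lines, with a log2 difference of 0.79 (limma adjusted p = 0.02695). Orc5 ran opposite, at 26.81, 32.42 and 29.30 TPM in the YS lines, compared with 45.26, 41.94 and 48.12 TPM in the BM lines, with a log2 difference of -0.60 (limma adjusted p = 0.01471). In FL against BM lines Orc3 was higher and Orc5 lower, 2 of 6 genes beside 27.6% of all tested genes, and without FL line 1, FL line 3, BM line 1 or BM line 3 none passed in limma, where at least 1 had an unadjusted p under 0.05. After subtraction of chromosome medians only Orc5 of the ORC genes passed in YS against BM lines, at -0.73, where 34.1% of all tested genes passed.

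GINS, which has 4 subunits and binds the ring with CDC45, showed opposite movement of its own members. Gins2 was at 118.22, 120.81 and 97.95 TPM in the YS lines, 103.95, 98.68 and 101.41 TPM in the FL lines and 73.07, 74.97 and 72.91 TPM in the BM lines. It rose in both embryonic groups, by 0.60 (limma adjusted p = 0.005375) and 0.46 (limma adjusted p = 0.01608) on the log2 scale. Gins3 was at 29.14, 24.88 and 15.02 TPM in the YS lines, 16.31, 13.22 and 14.50 TPM in the FL lines and 44.99, 38.23 and 42.04 TPM in the BM lines. Its log2 difference was -0.88 in YS (limma adjusted p = 0.02072) and -1.45 in FL (limma adjusted p = 0.003238) against BM lines. Gins2 and Gins3 lie on the same chromosome, 8, whose median differed by 0.13 and 0.08 in these comparisons. Gins1 and Gins4 did not pass.

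Firing factors convert licensed origins into forks, and they include the initiators Ticrr and Topbp1. In YS against BM lines 6 of 8 were higher and none was lower, with a median of 0.64, where 23.5% of all tested genes passed as higher. The count was 4 without BM line 1 or BM line 3, where 22.4% and 21.9% of all tested genes passed. Donson, which helps to bring GINS to the ring, had a log2 difference of 0.91 (limma adjusted p = 0.01431), Ticrr 0.76 (limma adjusted p = 0.0112), Topbp1 0.69 (limma adjusted p = 0.02681) and Mcm10 0.65 (limma adjusted p = 0.01281). Mtbp and Recql4 passed as well, while the kinase genes Cdc7 (0.41) and Dbf4 (0.48) did not. With chromosome medians subtracted 3 of the 8 passed, where 34.1% of all tested genes did. In FL against BM lines 1 of 8 passed, Donson at 0.63 (17.0% of all tested genes were higher), and in YS against FL lines 1 of 8, Ticrr at 0.65 (6.20%). In the latter comparison 7 of 8 passed without FL line 1, where 13.5% of all tested genes passed. Ticrr did not pass there without FL line 2, FL line 3, BM line 1 or BM line 3. Donson did not pass in FL against BM lines without FL line 1, FL line 3 or any one of the BM lines.

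Fork protection genes act at the moving fork and couple the helicase to the checkpoint. In YS against BM lines, 3 of 5 were higher, with a median of 0.80, beside the 23.5% of all tested genes. Timeless was at 42.98, 43.48 and 69.13 TPM in the YS lines, compared with 23.83, 28.43 and 23.02 TPM in the BM lines, with a log2 difference of 0.99 (limma adjusted p = 0.01684). Its partner Tipin had 0.86 (limma adjusted p = 0.02065) and Clspn, which encodes claspin, 0.80 (limma adjusted p = 0.01227). Tipin also passed between YS and FL lines at 0.83 (limma adjusted p = 0.0624), where 6.20% of all tested genes passed as higher. It did not pass without YS line 1, FL line 2, FL line 3 or any one of the BM lines. In FL against BM lines only Clspn passed, at 0.47 (limma adjusted p = 0.0955), beside 17.0% of all tested genes. Clspn did not pass there when any one of the FL or BM lines was left out. With chromosome medians subtracted, 4 of the 5 passed in YS against BM lines, where 34.1% of all tested genes did. The list of other MCM family and MCM-binding genes held 4 tested genes. Mcmbp, whose product binds MCM proteins, was the only 1 to pass, where 37.9% (YS) and 27.6% (FL) of all tested genes passed against BM lines. It was at 0.78 in YS (limma adjusted p = 0.006245) and 0.48 in FL (limma adjusted p = 0.0439) against BM lines. The FL call was lost without FL line 1, FL line 3, BM line 1 or BM line 3.

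The list of polymerases, clamp, clamp loader and RPA held 23 genes. In YS against BM lines, 11 were higher and 2 lower, with a median of 0.25, where 23.5% and 14.4% of all tested genes were. In FL against BM lines, 2 were higher and 6 lower (17.0% and 10.6% of all tested genes), and in YS against FL lines 7 were higher (6.20%). The 13 calls in YS against BM lines became 7 without BM line 1, where 22.4% of all tested genes passed. The 7 in YS against FL lines became 2 without FL line 3, where 2.34% of all tested genes passed. Pcna, the sliding clamp, was lower in both embryonic groups, at 712.63, 704.85 and 707.96 TPM in the YS lines, 827.64, 771.75 and 780.12 TPM in the FL lines and 979.21, 1091.53 and 1063.51 TPM in the BM lines. Its log2 differences against BM lines were -0.56 (limma adjusted p = 0.004536) and -0.40 (limma adjusted p = 0.01719). Pcna therefore ran against Mcm2, Mcm4 and Cdc6, although it is a common proliferation marker.

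Several of the genes lower in FL lines lie on chromosome 19, whose 404 tested genes had a median of -0.79 in FL and -0.52 in YS against BM lines. In FL against BM lines these were Fen1 at -0.89, Pola2 at -1.0 and Pold4 at -1.28, all of which passed. After subtraction of chromosome medians none of the 3 passed in limma, at -0.14, -0.25 and -0.53, with adjusted p of 0.3815, 0.2787 and 0.1745. Ddb1, a subunit of the ubiquitin ligase that degrades CDT1 on DNA, lies there too. It was at -0.91 in FL and -0.49 in YS against BM lines before subtraction, and at -0.16 and 0.04 after it, where it passed in neither.

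Of the 12 genes that turn over licensing factors, 1 was higher and 2 were lower in YS than in BM lines. Of all tested genes, 23.5% and 14.4% were. The list median was 0.07 on the log2 scale, against 0.11 for all tested genes. The 3 calls became 2 without YS line 1, BM line 1 or BM line 3, where 38.0%, 22.4% and 21.9% of all tested genes passed. They became 4 without YS line 3 (40.3%). In FL against BM lines, 1 was higher and 2 were lower (17.0% and 10.6% of all tested genes). Skp2 had the largest difference of the 12 in YS against BM lines. SKP2 recognizes CDT1 for destruction in S phase. Skp2 was at 71.62, 45.92 and 33.80 TPM in the YS lines, 34.24, 26.99 and 31.38 TPM in the FL lines and 18.92, 19.16 and 17.52 TPM in the BM lines. Every embryonic line was above every BM line, with log2 differences of 1.33 in YS (limma adjusted p = 0.006394) and 0.70 in FL lines (limma adjusted p = 0.07272). Cul1, the scaffold of the same ligase, was lower, at -0.39 and -0.52. The geminin relatives Mcidas and Gmnc were at or near 0 in all lines and were not tested.

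E2F and proliferation genes did not share one direction. Of 8 E2F genes, E2f8 was higher and E2f1, E2f5 and E2f6 were lower in YS than in BM lines, beside 23.5% and 14.4% of all tested genes. None of the 8 passed in limma when BM line 1, BM line 2 or BM line 3 was left out. In these settings 2, 3 and 2 had an unadjusted p under 0.05, and 22.4%, 27.7% and 21.9% of all tested genes passed. E2f1 was at 43.85, 49.01 and 46.92 TPM in the YS lines, compared with 54.51, 54.02 and 57.35 TPM in the BM lines, with a log2 difference of -0.24 (limma adjusted p = 0.07767). Only E2f3 passed in FL against BM lines, at 0.53, and only E2f6 in YS against FL lines, at -0.57, and neither passed when FL line 2, FL line 3 or any one of the BM lines was left out. Of 6 proliferation markers, Rrm1 and Tyms were higher and Pcna and Rrm2 lower in YS than in BM lines, beside 23.5% and 14.4% of all tested genes. Of these 4 calls, 2 were left without YS line 2, BM line 1 or BM line 3 (36.6%, 22.4% and 21.9% of all tested genes passed). In FL against BM lines 5 of the 6 had a negative difference (median -0.20), and Pcna and Rrm2 passed as lower (10.6% of all tested genes). Only 1 of these calls was left without FL line 3 or any one of the BM lines. In YS against FL lines 5 of the 6 had a positive difference (median 0.33), and Rrm1 passed as higher (6.20%). Rrm1 did not pass there without FL line 2 or FL line 3. Mki67 was at 309.94, 259.79 and 361.28 TPM in the YS lines, compared with 295.44, 276.92 and 278.64 TPM in the BM lines, so the groups overlapped.

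**Figure D5:**
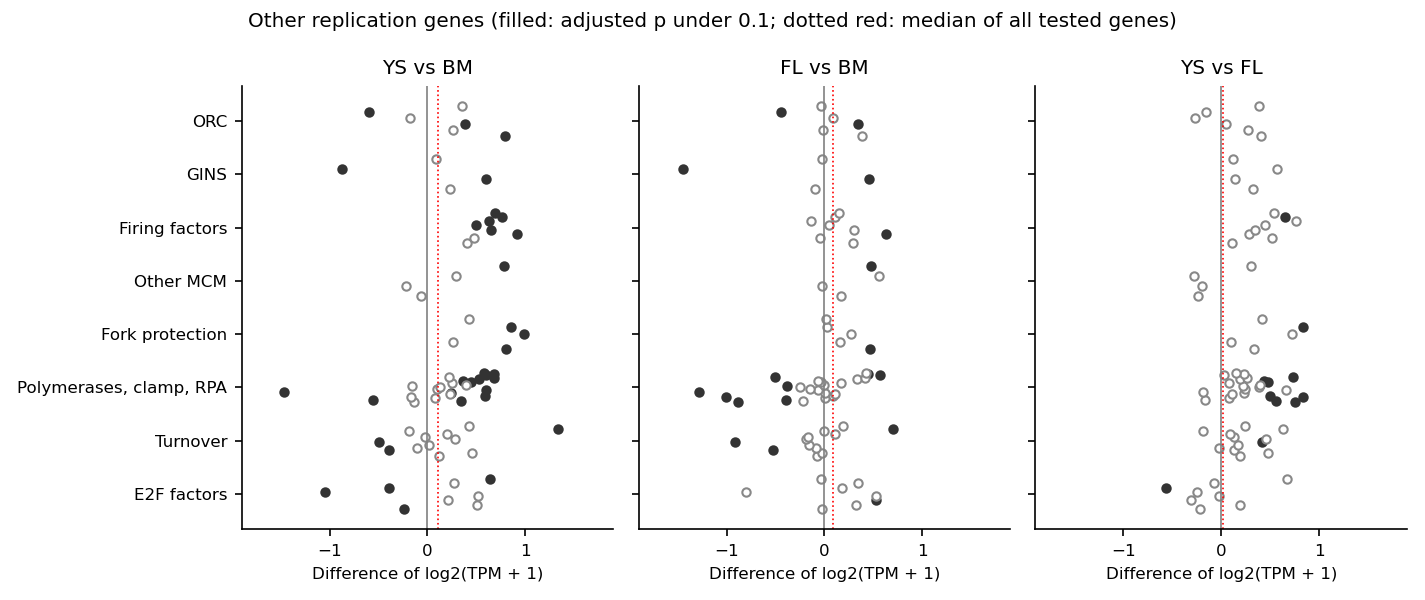
Log2 difference of every tested gene in 8 lists of replication genes, in the 3 comparisons; each point is 1 gene, filled points passed at an adjusted p under 0.1, and the dotted line is the median of all tested genes. In YS against BM lines all 8 firing factors lie to the right of 0, and in the other lists except fork protection genes lie on both sides.

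Genes next to the licensing genes on the chromosome were checked for a shared pattern. Of 20 nearest neighbors, 14 were tested. None passed in YS against BM lines in limma, where 2 had an unadjusted p under 0.05 and 37.9% of all tested genes passed, while 3 were higher in FL against BM lines (Rara beside Cdc6, Tpra1 beside Mcm2 and Ufd1 beside Cdc45) and 3 were lower in YS against FL lines. The shares of all tested genes were 17.0% and 6.56%. Prkdc, which shares a start region with Mcm4 in the opposite direction, was between 6.87 and 9.48 TPM in all lines, with log2 differences of -0.05 in YS and 0.10 in FL against BM lines. Ap4m1, which overlaps Mcm7 head to head, did not pass in any comparison. Whether reads were counted by strand is not given in the sources used here, so the values of overlapping neighbors are uncertain. Ufd1, head to head with Cdc45 and also on chromosome 16, was at 0.34 in FL against BM lines (limma adjusted p = 0.03442).

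Correlation over the 9 libraries showed which genes ran together. Mcm5 was closest to the mean pattern of the 6 subunits (r = 0.98), a mean that includes Mcm5 itself. Cdc6 is not part of that mean and had r = 0.35 with it, so these values are not like measures. The mean correlation with the other genes of the 10 was 0.577 for Mcm2, 0.567 for Mcm5 and 0.252 for Cdc6. Gmnn was the only gene of the 10 with a negative mean correlation with the others, -0.27. Outside the set, the genes most like the subunit mean were Gnl3, Cct5, Nup205, Isy1, G3bp1, Blm, Serbp1, Recql4, Rfwd3 and Cad, with r between 0.977 and 0.984. Blm and Recql4 encode DNA helicases, and Gnl3, Cct5 and Cad act in nucleolar function, protein folding and pyrimidine synthesis. All of them were highest in YS line 1.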

How the data were processed

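The authors deposited gene-level TPM values, 1 table for the 9 libraries. Per the labels and the submitters' processing notes, poly(A) libraries were made with a directional kit, and Trim Galore 0.6.6, STAR 2.7.9a and RSEM 1.3.3 were used; genome build and annotation are not given in the sources used here. TPM keeps no depth, so no counting error can be given, and read counts were not analysed here.

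Values were transformed to log2(TPM + 1), which understates changes of low genes. Genes reaching 1 TPM in 3 or more libraries (11753 of 24411) were fitted with limma 3.58.1 (R 4.3.3), with an intensity trend, all 9 libraries in 1 fit and Benjamini-Hochberg adjustment per comparison. Ratios were compared by exact permutation (scipy 1.17.1). Line numbers are only names: same-numbered lines correlated between -0.118 and 0.088. Chromosomes were taken from RefSeq by symbol for 11161 tested genes. Alternatives were pseudocount, filter, scaling, trend, libraries in the fit, replicate block and each line left out. Members, lists and tests were chosen with earlier results of these data known, and the chromosome and list alternatives after seeing the data. Named genes are the 10 members, up to 4 passing genes per list by smallest adjusted p, neighbors, and the 10 most correlated genes; Mtbp, Mki67, E2f1, Cdc7, Dbf4, Gins1, Gins4, Mcidas and Gmnc were added after their values were seen.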

Additional observations from a re-analysis of the deposited data

How the results depend on the processing

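Of 570 log2 differences under alternative settings, 505 kept direction and side of the threshold, 22 came to pass, 34 no longer passed and 9 changed sign. With only the compared libraries in the fit, 5 genes passed in FL against BM lines (3 higher, 2 lower), where 40.5% of all tested genes passed. In that setting 0 passed in YS against FL lines by limma, where 3 had an unadjusted p under 0.05 and 0.834% of all tested genes passed. With the chromosome median subtracted, 5 passed in YS against FL lines, where 13.0% of all tested genes passed. With 1 line left out, the counts ranged from 3 to 7 in YS against BM lines, from 1 to 5 in FL against BM lines and from 0 to 6 in YS against FL lines; leaving out BM line 1 or BM line 3 gave the smallest count in each comparison, shared with FL line 2 in the last 2 and with FL line 3 in the last, and fewer samples enter these fits. Sign changes were all in genes that did not pass: Mcm3 in FL against BM lines was -0.0061 after quantile normalization, -0.0258 after median-of-ratios scaling, between -0.0285 (without FL line 1) and 0.1579 with 1 line left out, and -0.0312 with chromosome medians subtracted; with those medians subtracted Gmnn was 0.0081 in YS against BM and 0.1589 in YS against FL lines and Cdc45 was -0.1009 in FL against BM lines; Mcm6 in YS against BM lines ranged from -0.1571 to 0.1132 (without YS line 3), and Cdc6 in YS against FL lines from -0.1001 (without FL line 3) to 0.2541. The Cdt1 to Gmnn log2 difference in FL against BM lines ranged from -0.2245 to 0.0411 (without BM line 3) and was 0.0176 without FL line 2. The cause was not tested. With the line number as a replicate block, 6, 3 and 3 genes passed in the 3 comparisons (Mcm3 was added in YS against FL lines, limma adjusted p = 0.09663), and the Cdt1 to Gmnn differences were 0.3851, -0.0877 and 0.4729; the block changed no other call of the 10 genes. Among the other lists it moved the count to 5 from 3 for turnover of licensing factors in YS against BM lines, to 0 from 1 for fork protection and to 1 from 2 for proliferation markers in FL against BM lines, and to 2 from 1 for firing factors in YS against FL lines. Over all alternatives, 123 of 570 counts of these lists moved by over 1.5 times. TPM scaling put the median of all tested genes at 0.11 in YS against BM lines, against -0.01 after quantile normalization. Without depth, differences in low genes such as Cdc6 have no counting error.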
